A study of Rattus norvegicus with 10 samples.

Results

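Axon guidance ligands and receptors were examined in the trigeminal ganglion (TG) of rats with oral ulcerative mucositis (OUM), an ulcer of the oral mucosa raised with acetic acid. Members were chosen by gene symbol and not by their values, though with earlier results of these data known. They were every symbol that begins with Sema, Plxn, Epha, Ephb, Efna, Efnb, Robo or Unc5. The 3 Slit genes, *Nrp1*, *Nrp2*, *Ntn1*, *Ntn4* and *Dcc* were also taken. This rule found 53 genes on 68 probes among the 15507 genes with a symbol on the array, and 46 of the 53 were bright enough to be tested. The RNA came from 10 male Wistar rats, with whole ganglia dissected from both sides and 1 array per rat. In the 5 OUM rats, labelled Stomatitis, filter paper with 50% acetic acid had lain on the mucosa at the lower incisors for 30 s, and tissue was taken on day 2. The 5 naive rats, labelled Control, were anesthetized like the OUM rats and received nothing else. The methods of the study give 8 weeks as the age for this model, and perfusion with saline before dissection. Because whole ganglia were used, the measured tissue holds neurons of all branches of the nerve and not only those that reach the ulcer, with glia, vessels and connective tissue around them.

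Guidance cues steer growing axons by attraction or repulsion at the growth cone, the moving tip of the axon. Semaphorins act through plexins, with neuropilins as co-receptors for most of the secreted class 3. Ephrins bind Eph receptor tyrosine kinases and signal at cell contacts in both directions, Slits repel through Robo receptors, and netrins attract through Dcc or repel through Unc5 receptors. Many of these genes stay active in adult sensory ganglia, and several also shape blood vessels.

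Levels are log2 intensities relative to the 75th percentile of each array, so 0 is the level of that percentile and a difference of 1 is a doubling. On the 10 arrays, 69.1% to 75.7% of the 30367 probes stood well above background. The arrays lay on slide 1, with naive rats 1, 2, 3 and 5 and OUM rats 1, 2 and 3, and on slide 2, with naive rat 4 and OUM rats 4 and 5. Slides set many values apart: 10.8% of the 19290 features tested were higher on every array of slide 2 than on any of slide 1, and 5.33% were lower, while 0.752% were higher on every OUM array than on any naive one and 1.06% were lower. The summed log2 level of 9 sensory neuron markers was 8.80 to 8.96 in naive and 8.67 to 9.03 in OUM rats, a sum led by the brightest of them. Of the 9, 8 had a difference below 0, with a median of -0.08, and *Elavl4* was lower at an unadjusted p under 0.05, by -0.17. For 8 Schwann cell markers the sums were 8.49 to 8.72 and 8.54 to 8.68. Genes of the pituitary, the gland that lies beside the ganglia, reached a summed level of 4.29 to 4.71 in naive rat 1 and in OUM rats 1 and 2, and lay between -1.50 and 2.42 on the other arrays.

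No guidance gene passed an adjusted p of 0.05 in limma, where the lowest value among the 46 was 0.333 and 0.0104% of all features passed. At an unadjusted p under 0.05, 2 members were higher in OUM, the semaphorin *Sema6b* and the netrin receptor *Unc5b*, which is 4.35% of the members against 3.76% of all features. No member was lower at that threshold, against 5.19% of all features. *Sema6b* was also the 1 member of the 46 whose OUM arrays all lay above the naive arrays, where 0.752% of all features did. No member had all OUM arrays below the naive arrays by the probe that stands for it, against 1.06% of all features. Of the 46 differences, 29 were above 0 and 17 below, with a median of 0.03 on the log2 scale beside -0.01 over all features. They ran from -0.28 for *Epha3* to 0.33 for *Unc5b*.

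The arrays set bounds on what could have been missed. For 42 of the 46 genes the 95% interval of the difference lay inside a 1.5-fold change in either direction, and the exceptions were *Efnb2*, *Epha3*, *Epha7* and *Unc5b*. A 1.2-fold change lay outside the interval, in both directions, for 17 genes. The interval reached 0.08 to 0.53 to either side of the difference on the log2 scale, with a median of 0.22. These bounds hold for the mean over a whole ganglion, and fewer cells of a type cannot be told apart from less RNA in each cell.

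**Figure D1:**
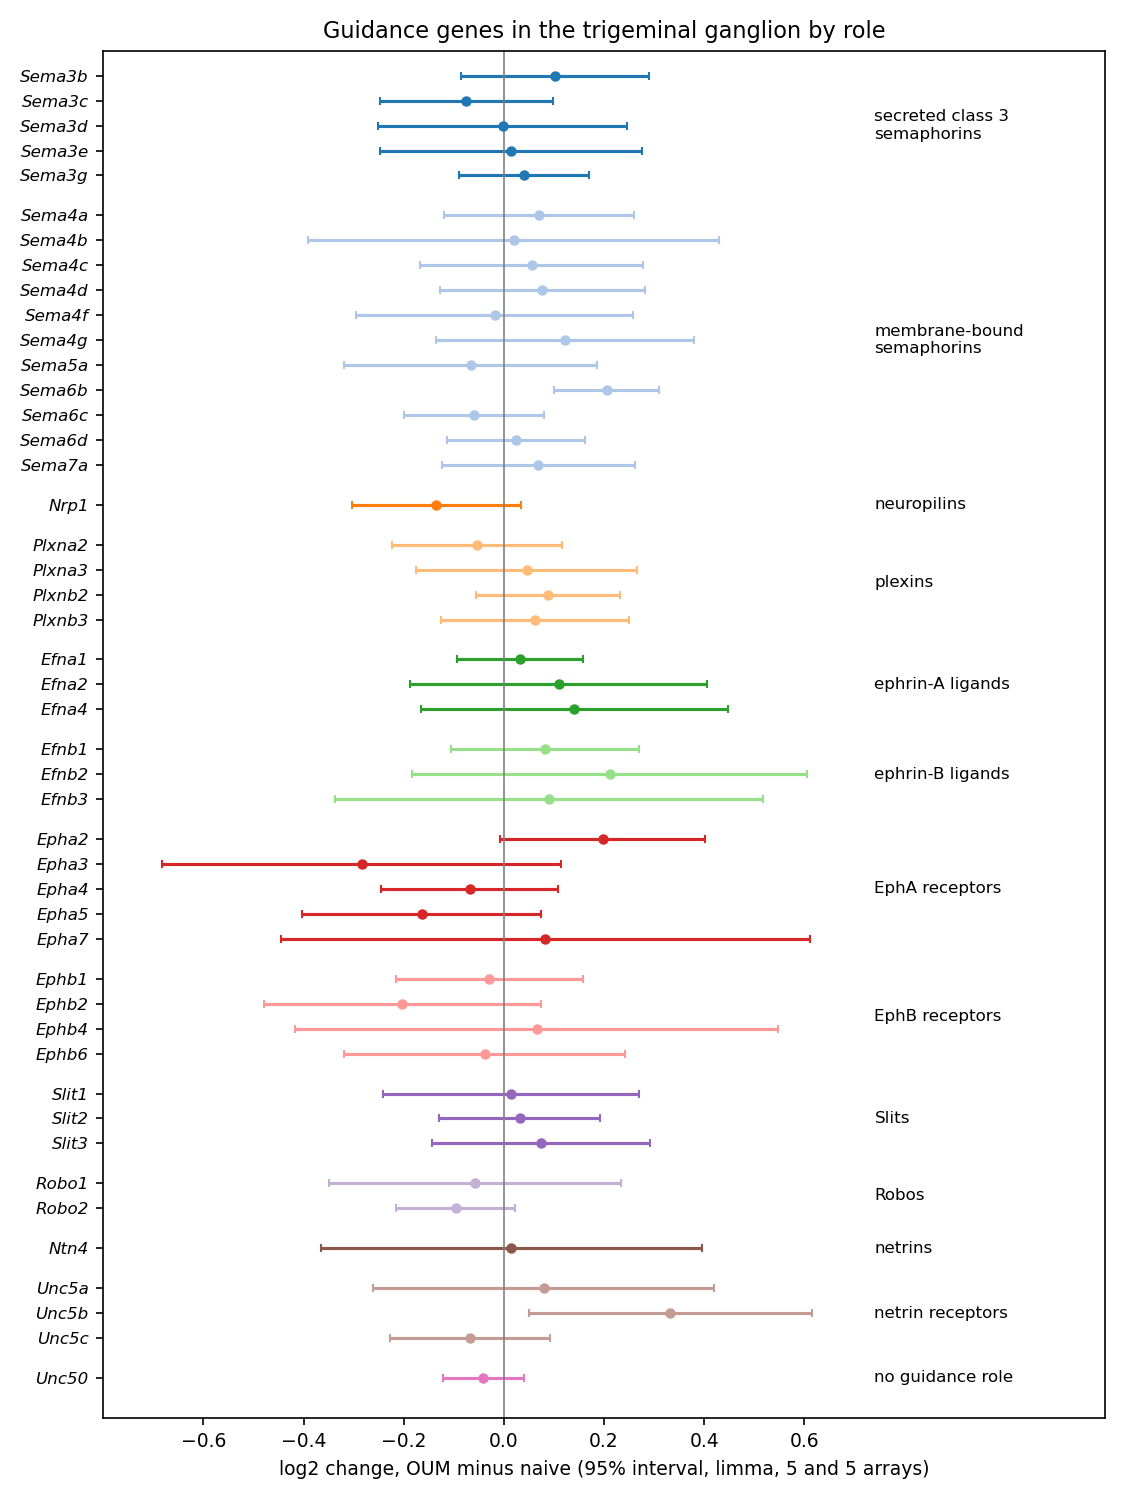
Difference in log2 level between 5 OUM and 5 naive arrays for the 46 tested guidance genes, grouped by role; points are the differences and bars their 95% intervals from limma, and *Unc50* stands apart because it has no guidance role. The intervals of *Sema6b* and *Unc5b* leave out 0, and 42 of the 46 lie inside a 1.5-fold change.

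Of the secreted class 3 semaphorins, many of which repel axons through neuropilin and plexin, 6 had a probe and 5 were tested. *Sema3a*, the best studied of them, was well above background on 1 OUM array and on no naive array, and was not tested. *Sema3b* had the lowest p of the 5. Its level was 3.32, 3.04, 3.10, 2.96 and 3.35 in naive rats 1 to 5 and 3.24, 3.42, 3.26, 3.19 and 3.17 in OUM rats 1 to 5. The groups overlapped, since naive rats 1 and 5 stood above all OUM rats but rat 2, and the difference of 0.10 was close to its standard error of 0.08 (adjusted p = 0.738). Without naive rat 4 or OUM rat 2 it was 0.05 or 0.06. The other 4, *Sema3c*, *Sema3d*, *Sema3e* and *Sema3g*, differed by -0.07 to 0.04.

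All 11 membrane-bound semaphorins with a probe were tested, and 8 of them had a difference above 0, with a median of 0.06. *Sema6b*, a transmembrane semaphorin that signals through plexins of class A, read -1.49, -1.42, -1.42, -1.32 and -1.41 in naive rats 1 to 5. It read -1.23, -1.19, -1.31, -1.16 and -1.14 in OUM rats 1 to 5. The lowest OUM array, that of rat 3, lay just above the highest naive array, that of rat 4, so the gap between the groups was narrow although they did not overlap. The means were -1.41 ± 0.06 in naive and -1.21 ± 0.07 in OUM rats (SD, n = 5 each), a difference of 0.21 with a standard error of 0.05, or 1.15-fold. An exact permutation test, with 252 ways to split the rats, gave p = 0.00794, the smallest it can give, while the adjusted p in limma was 0.333. The difference was 0.19 within slide 1, 0.17 within slide 2 and 0.19 with slide as a block. Of the tested members with a guidance role, *Sema6b* was the steadiest within groups, with a pooled SD of 0.06.

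The plexins of class A are the partners of *Sema6b*. *Plxna2* differed by -0.05 and *Plxna3* by 0.05, each with a standard error larger than the difference, and *Plxna4* was not analysed here. The other members of class 6, *Sema6c* and *Sema6d*, differed by -0.06 and 0.02.

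*Sema4b*, a transmembrane semaphorin of class 4, was measured by a pair of probes that did not move alike. The brighter one, which stood for the gene, read 0.57, 0.38, -0.13, 0.50 and -0.24 in naive and 0.50, 0.48, -0.13, 0.19 and 0.14 in OUM rats. Its values spread widely in both groups, and the difference of 0.02 was far below its standard error of 0.18. The dimmer probe read -4.43, -4.20, -4.52, -4.37 and -4.22 in naive and -4.57, -4.93, -4.55, -4.75 and -4.56 in OUM rats. All OUM arrays lay below all naive ones there, by -0.32 with a standard error of 0.09 (exact permutation p = 0.00794, adjusted p = 0.447 with every probe tested separately). Of the 13 members with more than 1 tested probe, 9 had their probes on the same side of 0, and the others were *Sema4b*, *Sema6c*, *Sema6d* and *Ephb1*. At the probes of *Sema6c*, *Sema6d* and *Ephb1* the differences ran from -0.06 to 0.03. *Sema6b* and *Unc5b* had 1 probe each, so no other probe bears on them.

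**Figure D2:**
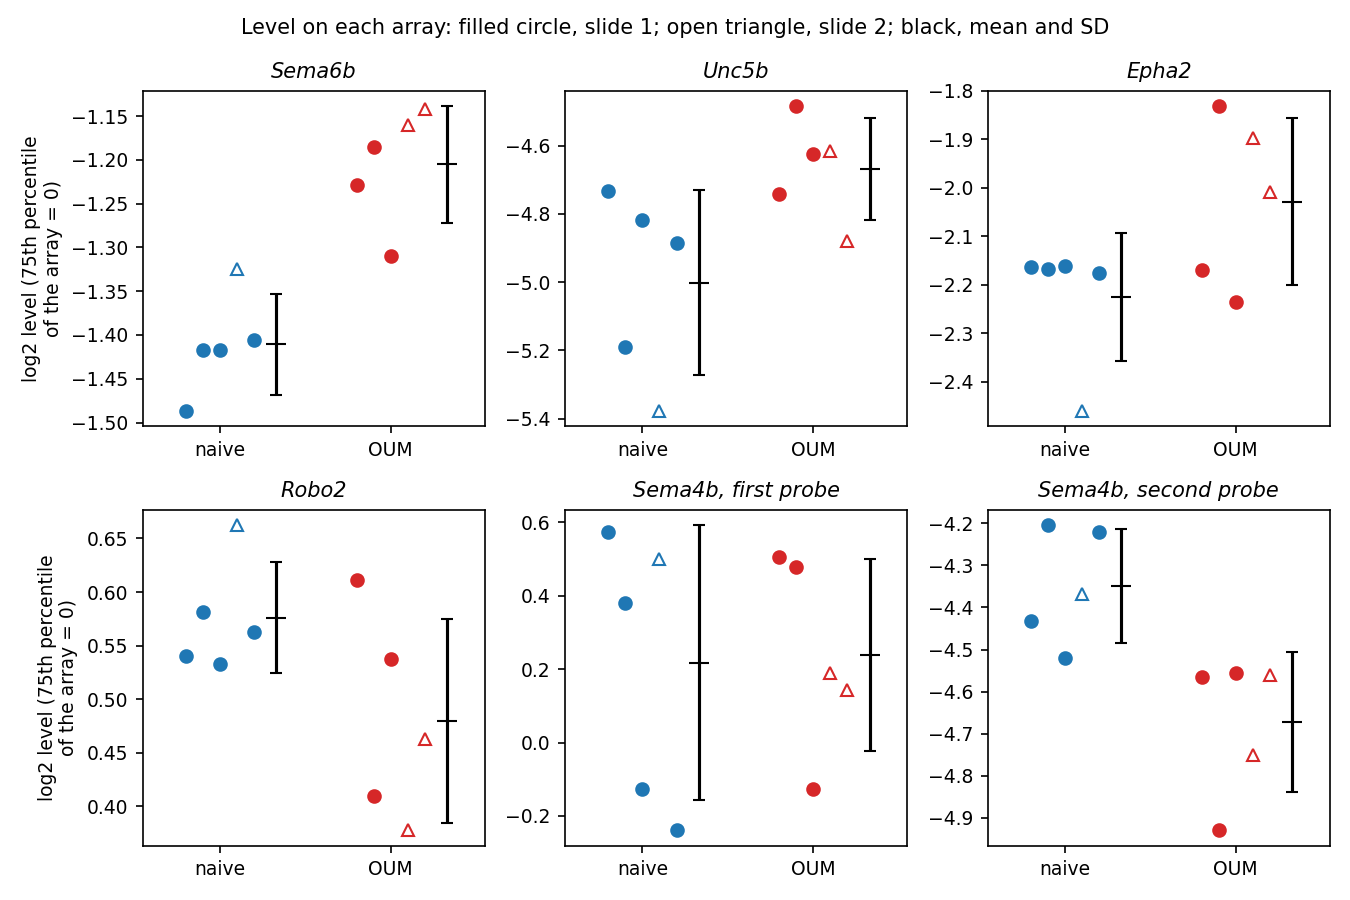
Log2 level of 4 guidance genes and of both *Sema4b* probes on each array, with naive rats in blue and OUM rats in red, slide 1 as filled circles and slide 2 as open triangles; the black bar is the mean and SD of 5 arrays, and each panel has its own axis. *Sema6b* separates the groups upward and the second *Sema4b* probe downward, while *Unc5b*, *Epha2* and *Robo2* overlap.

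Of the receptors for semaphorins, *Nrp1*, the co-receptor for class 3, was tested, and *Nrp2* was not, being well above background on 3 naive and 4 OUM arrays. *Nrp1* read -2.91, -2.83, -2.69, -2.97 and -2.96 in naive and -2.86, -3.20, -3.07, -2.95 and -2.97 in OUM rats. OUM rats 2 and 3 stood below all naive rats and the other 3 among them, giving a difference of -0.13 with a standard error of 0.08 (adjusted p = 0.637). It was -0.17 at an unadjusted p under 0.05 without OUM rat 1, and -0.09 without naive rat 3 or OUM rat 2. Plexins, the signalling receptors, had 4 tested genes with differences of -0.05 to 0.09. The lowest p among them was that of *Plxnb2*, the receptor of class 4 semaphorins, with -2.14, -2.21, -2.09, -2.22 and -1.99 in naive and -2.13, -1.93, -2.14, -1.93 and -2.09 in OUM rats. OUM rats 2 and 4 stood above all naive rats, and the difference was 0.09 with a standard error of 0.06 (adjusted p = 0.707).

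All 6 ephrins tested had a difference above 0. The ephrin-A ligands, which are held to the membrane by a lipid anchor, differed by 0.03 to 0.14, and the ephrin-B ligands, which cross it, by 0.08 to 0.21. *Efna4* read -4.14, -4.04, -4.24, -3.91 and -3.97 in naive and -4.19, -4.05, -4.18, -3.55 and -3.62 in OUM rats. *Efnb2*, known from arteries as well as from axon guidance, read -4.32, -4.31, -4.50, -3.91 and -4.18 in naive and -4.40, -4.31, -4.21, -3.68 and -3.57 in OUM rats. In both genes the high arrays were those of OUM rats 4 and 5 together with naive rat 4, which are the 3 arrays of slide 2. The difference of *Efna4* was 0.14 with a standard error of 0.14 (adjusted p = 0.784), and became 0.06 with slide as a block. That of *Efnb2* was 0.21 with a standard error of 0.18 (adjusted p = 0.744), and became 0.10 with slide as a block. Without OUM rat 4 or 5 the difference was 0.05 or 0.07 for *Efna4* and 0.12 or 0.09 for *Efnb2*. Within slide 1 alone, 4 of the 6 ephrins were above 0, with a median of 0.01 beside -0.04 over all features. *Efna5* was not well above background on any array.

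Of the Eph receptors, 9 were tested, and 6 of them had a difference below 0. *Epha2*, which binds ephrin-A ligands and is also found in epithelia and vessels, had the lowest p. It read -2.16, -2.17, -2.16, -2.46 and -2.17 in naive and -2.17, -1.83, -2.24, -1.90 and -2.01 in OUM rats. Naive rats other than rat 4 lay close together, between -2.17 and -2.16, and OUM rats 2, 4 and 5 stood above them. The difference of 0.20 had a standard error of 0.09 (adjusted p = 0.562, exact permutation p = 0.111), and was 0.09 within slide 1 and 0.51 within slide 2, where naive rat 4 is the only naive array. Without naive rat 4 it was 0.14, and without OUM rat 1 or 3 it was 0.23 or 0.25 at an unadjusted p under 0.05.

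*Epha3*, a receptor of ephrin-A ligands, had the lowest of all differences, at -0.28 with a standard error of 0.18 (adjusted p = 0.665). It read -5.42, -5.79, -5.55, -5.79 and -5.72 in naive and -6.22, -6.40, -5.33, -5.81 and -5.93 in OUM rats, where OUM rat 3 was the highest and OUM rat 2 the lowest of all 10. Its probe was well above background on 4 of the 5 OUM arrays, and single arrays moved the difference both ways. It was -0.44 at an unadjusted p of 0.00874 in limma without OUM rat 3 (adjusted p = 0.642), -0.17 without OUM rat 2, and 0.02 without the 3 arrays rich in pituitary hormone genes. *Epha5*, a receptor of the same class, differed by -0.16 with a standard error of 0.11, and by -0.10 without OUM rat 3. *Ephb2*, a receptor of ephrin-B ligands, read -5.71, -5.72, -5.44, -5.86 and -5.81 in naive and -5.99, -5.63, -6.26, -5.68 and -5.98 in OUM rats. OUM rats 2 and 4 lay inside the naive range, and the difference was -0.20 with a standard error of 0.12 (adjusted p = 0.659). Without OUM rat 3, the lowest, it was -0.11, and with normexp it was -0.17 at an unadjusted p of 0.0184 in limma (adjusted p = 0.512). *Ephb4*, the venous receptor of *Efnb2*, differed by 0.07, and its arrays spread over 1.1 in log2 level.

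Slits and Robos showed no clear shift. The 3 Slits, secreted repellents, differed by 0.01 to 0.07. *Slit3* read -0.78, -1.09, -0.97, -1.22 and -0.80 in naive and -1.0, -0.69, -0.83, -0.96 and -1.01 in OUM rats, and 4 of the 5 OUM values lay inside the naive range (difference 0.07, standard error 0.10, adjusted p = 0.854). *Robo2*, a Slit receptor, read 0.54, 0.58, 0.53, 0.66 and 0.56 in naive and 0.61, 0.41, 0.54, 0.38 and 0.46 in OUM rats. OUM rats 2, 4 and 5 stood below all naive rats, and OUM rats 1 and 3 within the naive range. Its difference was -0.10 with a standard error of 0.05 (adjusted p = 0.630, exact permutation p = 0.103), and a second *Robo2* probe gave -0.08. Without OUM rat 1 the difference of the first probe was -0.13 at an unadjusted p under 0.05 in limma (adjusted p = 0.345), the 1 of 27 alternatives under that threshold. It was -0.03 within slide 1, -0.24 within slide 2, and -0.07 without naive rat 4 or OUM rat 4. *Robo1* differed by -0.06.

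*Ntn1* and *Dcc*, the classical netrin and its attractive receptor, were not well above background on any of the 10 arrays. *Ntn4*, a netrin of basement membranes, read -4.53, -4.42, -4.50, -5.27 and -4.33 in naive and -4.82, -4.72, -4.48, -4.61 and -4.34 in OUM rats. Its overall difference of 0.02 hid opposite values within the slides, -0.23 within slide 1 and 0.79 within slide 2, where the low naive rat 4 is the only naive array. *Unc5b*, a repulsive netrin receptor also known from vessels, had the highest of all differences. It read -4.73, -5.19, -4.82, -5.38 and -4.88 in naive and -4.74, -4.48, -4.62, -4.62 and -4.88 in OUM rats. Naive rats 2 and 4 lay clearly below every OUM rat and OUM rats 2, 3 and 4 above every naive rat, while naive rat 5 lay at the level of the lowest OUM rat and the others were intermixed. The means were -5.00 ± 0.27 in naive and -4.67 ± 0.15 in OUM rats (SD, n = 5 each), a difference of 0.33 with a standard error of 0.13, or 1.26-fold. The exact permutation p was 0.0476 and the adjusted p in limma 0.509. The difference was 0.29 within slide 1, 0.63 within slide 2 and 0.39 with slide as a block. The unadjusted p was above 0.05 when naive rat 2, naive rat 4 or OUM rat 2 was left out, with differences of 0.29, 0.24 and 0.29. With another background correction, normexp, the difference was 0.13 at an unadjusted p of 0.142 in limma. *Unc5a* and *Unc5c* differed by 0.08 and -0.07, and *Unc5cl*, which carries the letters but is not known for guidance, was not well above background on any array. *Unc50*, which the letters of the rule also take, is no netrin receptor. It read -0.47, -0.42, -0.43, -0.44 and -0.45 in naive and -0.44, -0.54, -0.50, -0.49 and -0.43 in OUM rats, a difference of -0.04 within a narrow range on every array.

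Markers of cell types were read beside the guidance genes, and none passed the adjustment. Of 63 markers tested over 10 lists, 5 had a higher and 2 a lower level by their unadjusted p (under 0.05), with adjusted p from 0.284 to 0.529. Over all features, 3.76% were higher and 5.19% lower at that threshold. The higher ones were *Cldn5* of endothelium by 0.27, *Gfap* of the central nervous tissue list by 0.56, *Egr2* of Schwann cells by 0.38, *Gja1* of satellite glia by 0.34 and *C1qa* of macrophages by 0.31. *Fabp7* of satellite glia, at -0.31, and *Elavl4* were the lower ones. The list medians were 1.16 for pituitary, 0.39 for central nervous tissue, 0.15 for macrophages, 0.12 for endothelium and 0.11 for skeletal muscle. They were 0.09 for satellite glia, 0.07 for Schwann cells, -0.03 for fibroblasts and meninges, -0.08 for sensory neurons and -0.18 for blood. The summed level of the central nervous tissue list was 2.04 to 3.04 in naive and 2.54 to 3.57 in OUM rats. This sum was led by its brightest gene, *Aqp4*, at 1.365 to 2.33 in naive and 1.85 to 2.89 in OUM rats. Whether *Aqp4* and *Gfap* came from central tissue or from glia of the ganglion was not tested. The summed level of 6 endothelial genes was 0.70 to 0.85 in naive and 0.84 to 1.09 in OUM rats. *Cldn5* made up 63.1% to 67.9% of the endothelial sum, and the other 5 summed to between -0.84 and -0.65 in naive and between -0.80 and -0.52 in OUM rats. The part of these cell types in the values of *Sema6b*, *Unc5b* and the other guidance genes was not tested.

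The signs were counted apart for ligands and receptors, without a test. Of the 26 ligands tested, 21 had a difference above 0, with a median of 0.05, and of the 19 receptors 8 did, with a median of -0.04. The count above 0 moved with the slides: within slide 1 alone 14 ligands and 5 receptors were above 0, and within slide 2 alone 18 and 14. The median over all features moved too, to -0.04 within slide 1 and 0.02 within slide 2. Above that median lay 19 ligands and 9 receptors within slide 1, and 18 and 13 within slide 2, beside 22 and 8 over all 10 arrays. Without the 3 pituitary-rich arrays 10 of the 19 receptors were above 0, with a median of 0.02, and without OUM rat 5 also 10, with a median of 0.01. Ligands above 0 then numbered 19 and 21. Over all features 44.7% were above 0. Of the 46 genes, 21 had the same sign within both slides, which is 45.7% against 50.0% of all features.

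**Figure D3:**
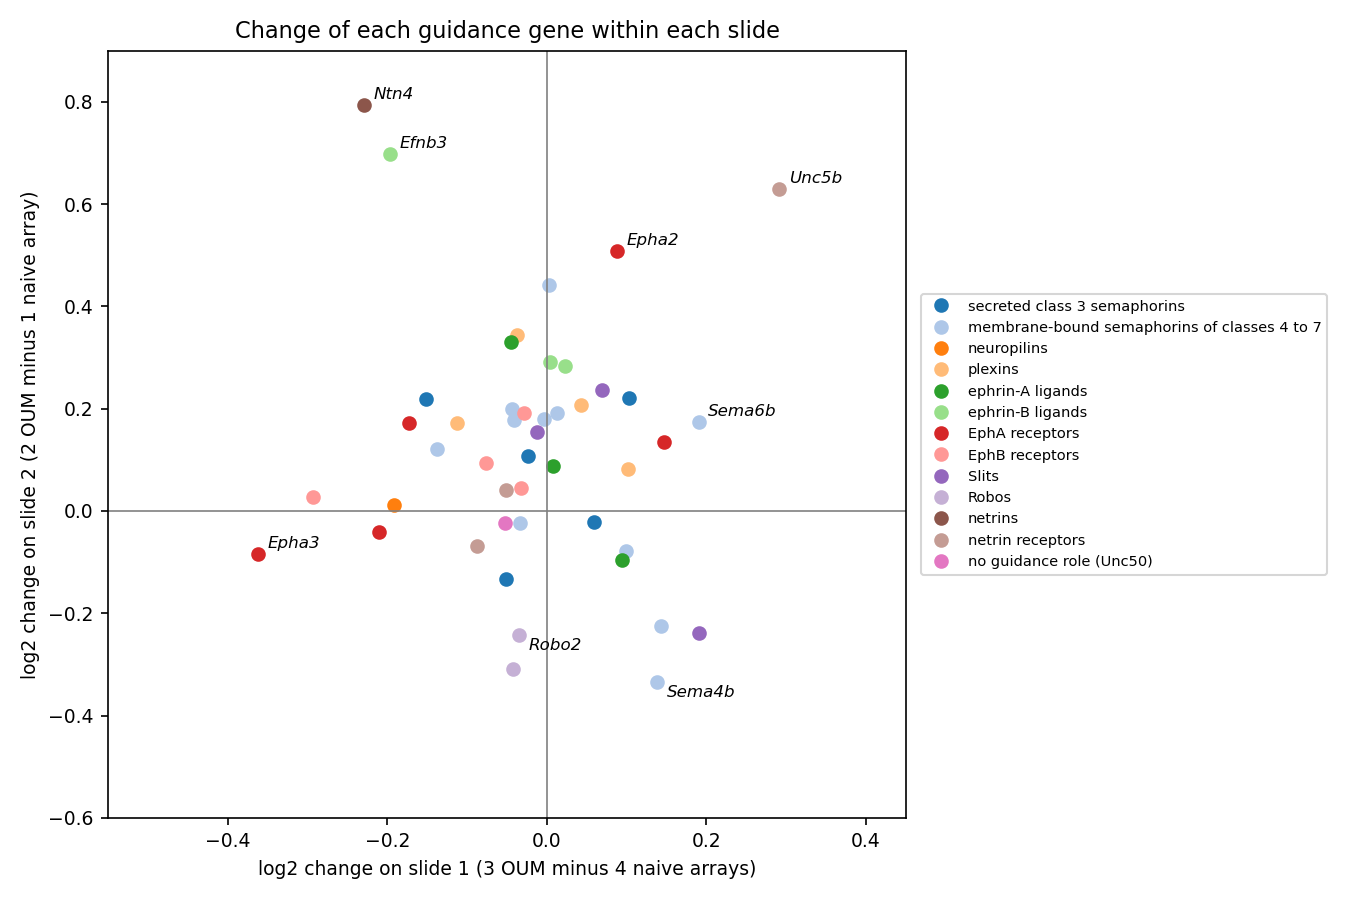
Log2 difference of each of the 46 guidance genes within slide 1 (horizontal axis, 3 OUM minus 4 naive arrays) and within slide 2 (vertical axis, 2 OUM minus 1 naive array), coloured by role. *Sema6b*, *Unc5b* and *Epha2* are above 0 within both slides, *Ntn4* and *Efnb3* lie at upper left with opposite signs, and 21 of the 46 genes have the same sign within both.

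Slide set some members apart, as it did many of all features. *Efna2*, *Efna4*, *Efnb2* and *Unc5a* were higher on every slide 2 array than on any slide 1 array. That is 4 of 46 or 8.7% of the members against 10.8% of all features. *Sema6c* alone was lower on every slide 2 array, where 5.33% of all features were. *Unc5a* read -3.03 in naive rat 4, -2.91 in OUM rat 4 and -3.07 in OUM rat 5, and between -3.58 and -3.46 on the 7 arrays of slide 1. Naive rat 4, the only naive array of slide 2, was the lowest of the 10 arrays for 11 members, among them *Epha2*, *Ntn4*, *Unc5b*, *Plxnb2* and *Slit3*. The array of naive rat 4 also had the smallest share of probes well above background, 69.1% against 71.1% to 75.7% on the others. OUM rat 2 was the highest for 8 members and the lowest for 9. Such counts were not made over all features, so they are not read as a trait of the members. The widest spread within groups was that of *Epha7*, with a pooled SD of 0.42, followed by *Ephb4* with 0.38 and *Efnb3* with 0.34.

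**Figure D4:**
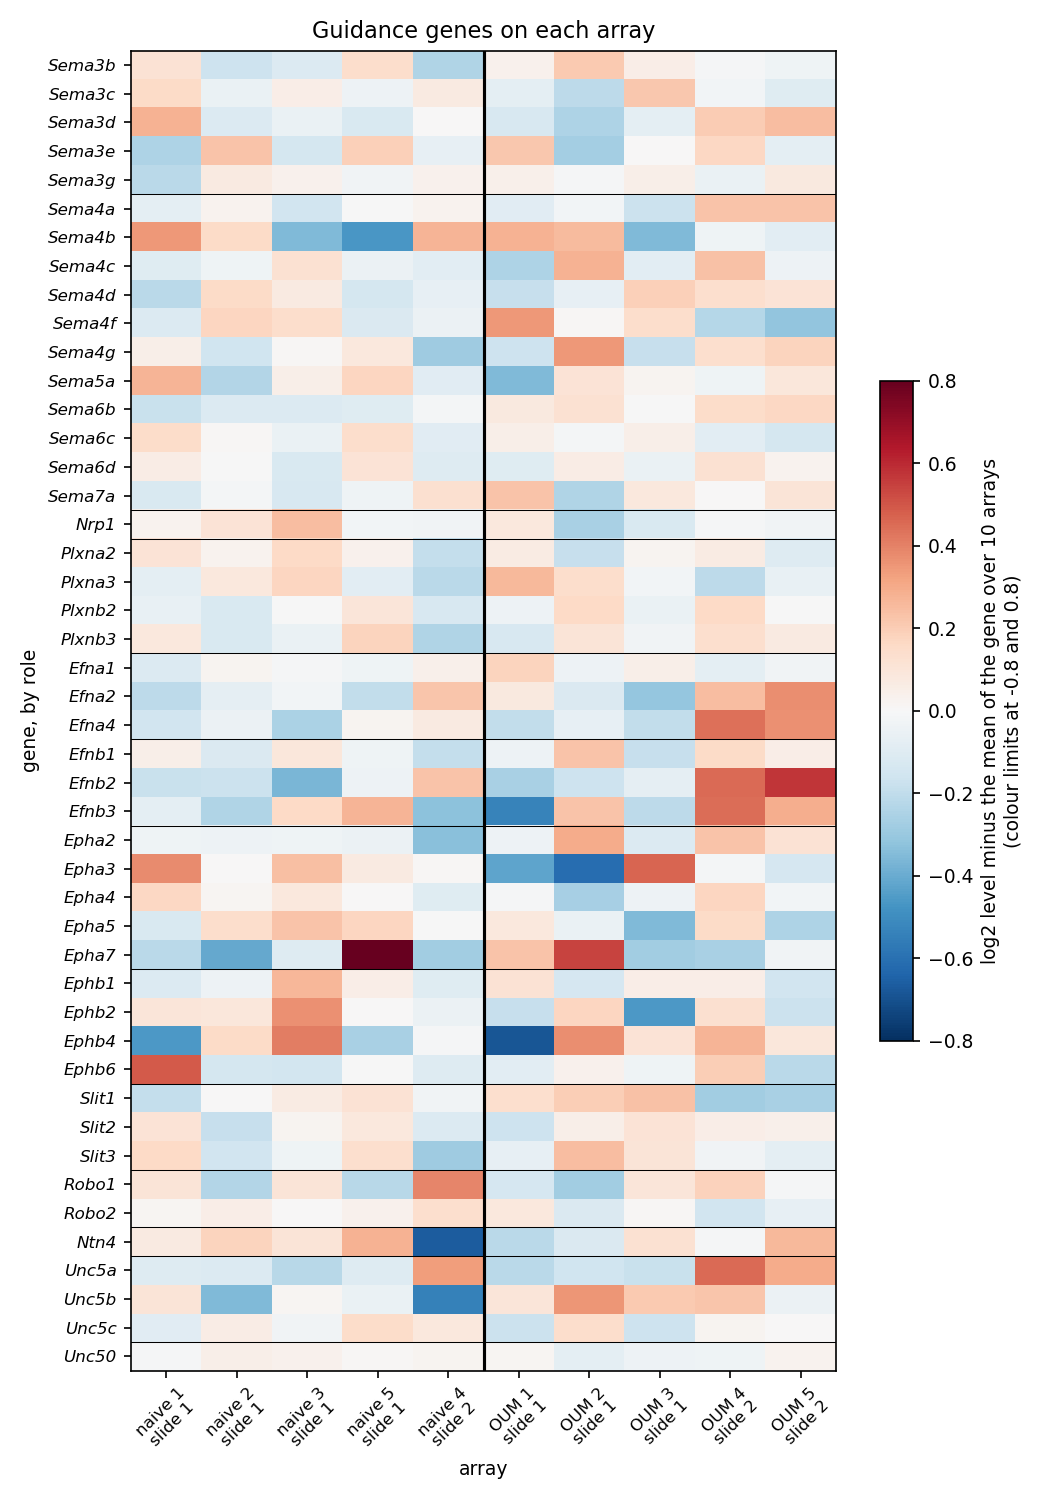
Log2 level of each of the 46 tested guidance genes on each array minus the mean of that gene over the 10 arrays, with red above and blue below that mean, genes by role and naive arrays left of the black line. The slide 2 arrays of OUM rats 4 and 5 are red for *Efna2*, *Efna4*, *Efnb2* and *Unc5a*, as is naive array 4, and naive array 4 is the lowest array for 11 genes.

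Other genes of guidance gave few differences. Of 10 further cues and receptors tested, such as *Rgma*, *Flrt1* and *Dscam*, none reached an unadjusted p under 0.05, and 8 had a difference above 0. Of 9 adhesion molecules that act with guidance receptors, none reached it, and 7 had a difference below 0. Of 50 genes of guidance signalling inside the cell, 2 had a higher and 2 a lower level by their unadjusted p (under 0.05), which is 4% each against 3.76% and 5.19% of all features. *Abl1*, a kinase downstream of Robo, was higher by 0.20 and the adaptor *Nck2* by 0.10, and *Enah*, an actin regulator of the growth cone, and the kinase *Pak3* were lower, with differences of -0.13 and -0.19. None of the 4 passed the adjustment, with adjusted p between 0.489 and 0.523 in limma, and the signs over the 50 were split, with 26 above 0 and 24 below.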

How the data were processed

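Total RNA of whole TGs from 5 naive and 5 OUM rats was labelled with Cy3 and hybridised to 1-colour Agilent SurePrint G3 Rat arrays, 1 per rat. The authors quantified the scans with Agilent Feature Extraction 10.7.1.1. The deposited intensity per spot is the processed signal, after background subtraction and spatial detrending. The authors' value table, normalized in GeneSpring GX, is a deposited linear signal: each array's processed signal divided by a constant, with column medians of 0.115 to 0.123. How that constant was chosen is not given in the sources used here. Its scale is therefore linear and its direction that of the intensity, with no centring of genes.

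Control spots and spots with an outlier mark (267 to 334 of 58717 per array) were left out, spots of a probe were averaged, and log2 intensity was taken minus the 75th percentile of the array (intensity 2617 to 2939). At most 1 spot per array was saturated. Accessions gave 18438 of 30367 probes a symbol in a RefSeq gene table of another genome build, used for names only, so no coordinates are given. Where several probes carried 1 symbol, the brightest on average represented the gene. Features had to be well above background on each array of at least 1 group, which left 19290 of 27436. *Dcc*, *Efna5*, *Epha1*, *Nrp2*, *Ntn1*, *Sema3a* and *Unc5cl* were not tested, and 16 further family members, such as *Sema3f* and *Plxna4*, were not matched to a probe and are not analysed here. Levels of different probes are not compared as amounts of RNA. The sums over marker lists and the share of *Cldn5* in its sum are of probe intensities, and so depend on how bright each probe is.

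Groups were compared by limma 3.58.1 in R 4.3.3, as a two-sided test without covariates, and p-values were adjusted by Benjamini-Hochberg over the 19290 features, with a threshold of 0.05. Single genes were also compared by a two-sided exact permutation test over 252 assignments, whose smallest p is 0.00794. A marker list's summed level is the log2 of its summed linear levels. Values by array are given for genes with an unadjusted p under 0.05 or groups without overlap, for the gene of lowest p in other roles, for genes without a guidance role, and for both *Sema4b* probes. *Epha3*, *Epha5* and *Unc5a* were added after their values were seen. Members and lists were chosen with earlier results of these data known. Tested on simulated data with 19279 features, limma recovered 85.1% of 67 features changed 1.5-fold and 94.0% of 67 changed 2-fold, and called 12 unchanged features. The simulated noise was independent for each feature and held no slide differences, and many features were changed at once. The recovered shares therefore do not give the power to find a lone changed guidance gene in these data. The number of arrays limits the precision. Alternatives were other background corrections, scalings, filters, probe rules, slide and replicate blocks, each slide alone, other tests, the authors' table, and arrays left out. The normexp correction used offset 50 and the median spot signal.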

Additional observations from a re-analysis of the deposited data

Results flagged for a closer look

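In 8 of 92 groups of 5 arrays (46 genes in each of both groups), 1 array lay far from the other 4, or 8.7%. About 5% would be flagged among independent, normally distributed values. The share over all features was not computed, so no excess is claimed. Of the 8 arrays, 3 were naive array 4, the only naive array of slide 2: *Epha2* read -2.46 there and -2.17 to -2.16 on the other naive arrays, *Ntn4* read -5.27 and -4.53 to -4.33, and *Unc5a* read -3.03 and -3.58 to -3.46. On other naive arrays, *Epha7* read -4.49 on array 5 and -5.69 to -5.38 on the others, *Ephb6* read 1.37 on array 1 and 0.73 to 0.87 on the others, and *Sema4c* read -1.59 on array 3 and -1.81 to -1.75 on the others. On OUM array 1, *Ephb4* read -4.96 and -4.18 to -3.90 on the others, and *Slit2* read 0.34 and 0.55 to 0.62 on the others. What sets these arrays apart was not tested.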

How the results depend on the processing

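No guidance gene passed an adjusted p of 0.05 under any of the 27 alternatives, 17 of other settings and 10 with 1 array left out. *Sema6b* kept its direction in all 27, from 0.17 to 0.23, at an unadjusted p under 0.05 in 26 (not slide 2 alone), with adjusted p from 0.228 to 0.673. *Unc5b* kept it too, from 0.13 to 0.63, in 21 of 27, with adjusted p from 0.261 to 0.814. Over all features, 2 passed in the main setting, 0 under quantile or median scaling, no filter, the mean of probes, the replicate block, the methods' t-test or without the pituitary-rich arrays, 1 with array weights or a trend with a robust prior, 159 within slide 2 alone, and 0 to 1 with 1 array left out. Guidance genes higher at an unadjusted p under 0.05 numbered 1 (normexp, replicate block, the methods' t-test), 4 (no filter) and 8 (slide 2 alone), and 1 to 3 with 1 array left out (1 without naive rat 2 or 4 or OUM rat 2). Lower ones numbered 1 with array weights, every probe, no filter, normexp and either slide alone, and 0 to 2 with 1 array left out (2 without OUM rat 1 or 3). The median difference of the guidance genes was -0.030 within slide 1 and 0.13 within slide 2, beside -0.042 and 0.023 over all features. Of 19 genes named with their alternatives, 11 kept their sign in all. *Nrp1* turned to 0.013, *Ephb2* to 0.028 and *Plxna2* to 0.17 within slide 2, and *Efna4* to -0.046 within slide 1. Without the pituitary-rich arrays *Epha3* turned to 0.0235, *Plxna3* to -0.085 and *Sema4b* to -0.060. *Sema4b* also turned to -0.0011 (normexp), -0.15 (mean of probes) and -0.33 (slide 2), and *Ntn4* to -0.033 (normexp), -0.23 (slide 1) and -0.080 (array weights). With 1 array left out, *Plxna3* ran from -0.013 to 0.10, *Sema4b* from -0.095 to 0.11 and *Ntn4* from -0.15 to 0.086. The causes were not tested. The labels do not say that replicate numbers pair the rats. Same-numbered deviations correlated at -0.02, -0.06, 0.13, 0.34 and -0.10 over the features. The 0.34 is that of replicate 4, whose naive and OUM arrays both lay on slide 2, while replicates 1 to 3 shared slide 1. With the replicate block, 1 guidance gene was higher at an unadjusted p under 0.05 and 0 features passed the adjustment. Slide 2 holds 1 naive array, so its values rest on that array, and dim probes such as *Epha3* and *Unc5b* are limited by background.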
